A study of Saccharomyces cerevisiae with 12 samples.

Results

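The replicate 1 arrays are the 4 samples whose titles end in replicate 1, 1 in each combination of genotype and agent. They are 4 of the 12 arrays of the series and are set here against the 8 arrays numbered 2 or 3. The arrays were chosen by the measured signals of genes held down by glucose, which were far higher in the 4 replicate 1 arrays. All probe sets of this contrast count as used by that choice, so the difference between the 2 sets of arrays is a description and carries no test. The study asked how replacing Arg95 of histone H2B with alanine alters the response of budding yeast to rapamycin, which inhibits TOR, the kinase that ties growth to nutrient supply. Its 4 groups, with 3 arrays each, were H2B R95A with rapamycin, H2B R95A untreated, H2B WT with rapamycin and H2B WT untreated. Rapamycin was given at 200 ng/ml for 30 min to cultures in exponential growth at an optical density of 0.7. Both strains derive from FY406, a haploid of mating type a with the markers his3, leu2, ura3-52, trp1 and lys2, in which the hta1-htb1 locus is replaced by LEU2 and the hta2-htb2 locus by TRP1. Both therefore carry H2B on a single copy plasmid, the H2B WT controls included. Neither the labels nor the paper say whether a replicate number marks a culture, a day or a hybridisation, so p-values measure only the spread between these arrays.

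While glucose is plentiful, yeast keeps the genes for other carbon sources silent through the repressor Mig1. When glucose runs low the Snf1 kinase removes Mig1 from its targets and activates Cat8, Adr1 and Sip4, which switch on gluconeogenesis, the glyoxylate cycle, acetate and ethanol use and fatty acid oxidation. Invertase, the high-affinity hexose transporters and the hexokinase Hxk1 are released from repression by the same kinase but at a milder loss of glucose.

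Each value below is an RMA signal on the log2 scale, and each difference is replicate 1 minus the mean of replicates 2 and 3 in the same group, given as a mean ± SD over the 4 groups. A probe set was said to stand apart when replicate 1 lay past both other replicates by at least 2-fold, in 1 direction, in all 4 groups. Of 5498 probe sets annotated with a single S. cerevisiae gene, 63 stood apart above the other replicates (1.15%) and 21 below them (0.382%). The split was 32 and 20 after centring each array on its spike-in controls, and 60 and 33 after quantile normalization over these probe sets. Without any minimum gap, replicate 1 was above both other replicates in all 4 groups for 16.5% of probe sets and below both for 14.6%. Over all 12 arrays, 62 of the 63 and 21 of the 21 showed no overlap between replicate 1 and the rest. The rule that picked these probe sets largely fixes that outcome, so it adds no support. Its share over all probe sets is not given. SMF2 (gap 1.01) and SNG1 (1.01) were just inside the 2-fold gap on the higher side, and YOR161C-C (0.99) and KNH1 (0.98) just outside. On the lower side MIG1 (1.00) and MTH1 (1.02) were inside, and SFK1 (0.99) and FMP48 (0.98) outside.

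The 4 replicate 1 arrays resembled each other more than the arrays of the other numbers did. The SD of a probe set over the 4 groups had a median of 0.18 in replicate 1, against 0.30 in replicate 2 and 0.32 in replicate 3. Replicate 1 status took 51.7% of the sum of squares within groups, and the step between replicates 2 and 3 took 14.0%. The share that an arbitrary contrast would take was not computed, and the first share describes the split itself. Between 2 groups, the replicate 1 differences correlated across probe sets at 0.34 to 0.88, lowest between untreated H2B R95A and H2B WT with rapamycin. These groups share no array, and probe sets are not independent replicates. The median signal differed little, at 7.25 to 7.29 in replicate 1 and 7.25 to 7.30 in the rest. The ACT1 3′ minus 5′ signal, a measure of RNA integrity, was 0.74 to 0.78 in replicate 1 and 0.42 to 0.74 in the rest, and that of TDH1 was 0.22 to 0.43 against 0.15 to 0.24. The poly-A spike-in mean was 4.63 to 5.93 in replicate 1 and 4.35 to 5.48 in the rest, and the part of these measures in the differences was not tested. Outside replicate 1, untreated H2B WT replicate 3 was close to a treated array. It correlated at 0.99 with H2B WT rapamycin replicate 3 and at 0.93 with untreated H2B WT replicate 2. Its ribosome biogenesis factors averaged 5.50, against 5.15 and 7.07 in these arrays. Its genes under nitrogen catabolite repression averaged 6.80, against 7.72 and 6.61. In replicate 1, the treated and untreated H2B WT arrays correlated at 0.98. The label of untreated H2B WT replicate 3 was not tested and is in doubt. The array was kept as labelled and enters every untreated H2B WT mean. Without this array 76 probe sets stood apart above and 26 below, though leaving out an array cannot lower these counts.

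The label of glucose derepression was set against 12 markers. Genes of this kind were used to choose the arrays, so their levels describe the choice and lend it no support. Of the 12, 10 stood apart above the other replicates, and 1 more, CAT8, had a positive difference. The remaining marker, SUC2, lay on the opposite side. FBP1, the fructose bisphosphatase of gluconeogenesis, had signals of 11.16, 11.40, 10.79 and 11.34 in replicate 1 of H2B R95A with rapamycin, untreated H2B R95A, H2B WT with rapamycin and untreated H2B WT, in that order. In the other 8 arrays it lay between 4.68 and 7.18 with a median of 5.63. The sets did not overlap, and the difference of 5.44 ± 0.67 is a mean of 43.5-fold. PCK1, phosphoenolpyruvate carboxykinase, read 11.95, 12.09, 11.79 and 12.04 in replicate 1 in the same order of groups, against 5.92 to 9.51 with a median of 6.77. Its highest value outside replicate 1 came from H2B R95A with rapamycin, replicate 3, and the next, 8.39, from untreated H2B WT replicate 3.

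**Figure D1:**
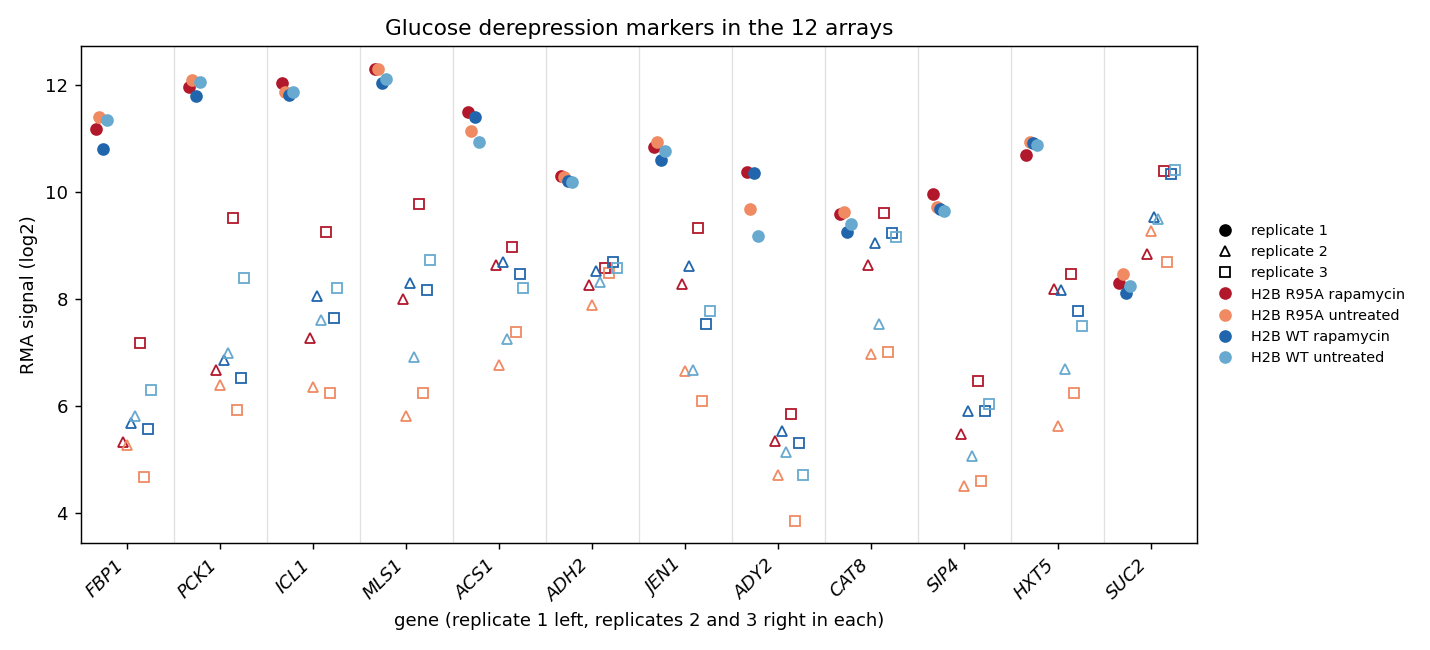
RMA signal (log2, vertical axis) of the 12 glucose derepression markers in each of the 12 arrays, with replicate 1 as filled circles on the left of each gene and replicates 2 and 3 as open symbols on the right, coloured by group. The circles sit above all open symbols for 10 of the markers, among the higher ones for CAT8 and below all of them for SUC2.

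The whole branch that makes sugar from acetate was high in replicate 1. Of 8 measured genes of gluconeogenesis and the glyoxylate cycle, 7 stood apart and all 8 had positive differences, with a median of 4.53. The median over all tested probe sets was 0.00, and 50.4% of them were positive. SFC1, the mitochondrial carrier that exchanges succinate for fumarate, had the highest difference of any probe set that stood apart, at 5.87 ± 0.95. It read 11.55, 11.48, 11.25 and 11.27 in replicate 1 and 3.71 to 7.51, median 5.55, in the rest. ICL1, isocitrate lyase, read 12.04, 11.86, 11.81 and 11.85 in replicate 1, against 6.24 to 9.25, median 7.62. MLS1, malate synthase, read 12.29, 12.30, 12.03 and 12.11, against 5.81 to 9.77, median 8.08. Both glyoxylate enzymes thus spanned a narrow range over the replicate 1 arrays and a wide one over the rest. IDP2, the cytosolic isocitrate dehydrogenase, differed by 4.61 ± 0.92 and ACS1, the acetyl-CoA synthetase of respiring cells, by 3.19 ± 0.62. MDH2, cytosolic malate dehydrogenase, was the member that did not stand apart. It read 11.26 to 11.66 in replicate 1 and 10.18 to 10.81 in the rest, with no overlap but a gap of 0.67.

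Uptake and oxidation of acetate, lactate, glycerol and ethanol showed the same direction with more spread. Of 10 genes, 4 stood apart and 9 were positive, with a median of 1.38. ADY2, an acetate transporter, read 10.37, 9.67, 10.34 and 9.17 in replicate 1, against 3.86 to 5.86, median 5.23. STL1, the glycerol and proton symporter, read 8.95, 8.77, 9.23 and 9.55, against 3.76 to 4.98, median 4.48. JEN1, the lactate and pyruvate transporter, differed by 3.16 ± 1.13. ADH2, the alcohol dehydrogenase that consumes ethanol, read 10.30, 10.27, 10.20 and 10.18, against 7.88 to 8.69, median 8.50. GUT1, glycerol kinase, read 9.54 to 9.76 in replicate 1 and 7.23 to 9.13 in the rest. CYB2, the mitochondrial lactate dehydrogenase, overlapped, with 8.79 to 9.17 in replicate 1 and 7.24 to 9.95 in the rest. ALD4, a mitochondrial aldehyde dehydrogenase, was the negative member at -0.03 and also overlapped.

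The carnitine shuttle, which carries acetyl groups into mitochondria, was taken with fatty acid oxidation as 1 list, with no summary of each part. Of 18 genes of both, 4 stood apart and 17 were positive, with a median of 1.16. YAT1, an outer mitochondrial carnitine acetyltransferase, read 11.24, 10.81, 10.89 and 10.40 in replicate 1, against 5.02 to 6.13, a difference of 5.19 ± 0.34. YAT2, a related enzyme, differed by 3.63 ± 1.16 and CRC1, the carnitine carrier of the inner membrane, by 3.11 ± 0.66. POX1, acyl-CoA oxidase, was the member of the oxidation pathway that stood apart. Its signal was low but above the minimum of 1.37, with 5.92 to 6.68 in replicate 1 and 3.39 to 5.43 in the rest.

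Respiratory genes were higher by smaller steps. All 21 measured genes of the respiratory chain were positive, with a median of 0.85, and 1 of them, CYC1, stood apart. All 16 measured genes of the tricarboxylic acid cycle were positive, with a median of 0.76 and with SDH2 standing apart, and 15 of 16 ATP synthase genes were, with a median of 0.67. CYC1, the main cytochrome c, read 10.74, 10.86, 10.27 and 10.68 in replicate 1, against 7.53 to 9.07, median 8.68. SDH2, the iron-sulfur subunit of succinate dehydrogenase, read 11.62, 11.45, 11.60 and 11.52, against a median of 10.02 and a highest value of 10.33. Both were separate from every other array.

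Among the regulators, the activators differed unevenly. All 7 measured activators were positive, with a median of 0.71, and SIP4, whose product binds the promoters of gluconeogenic genes, was the member that stood apart. It read 9.95, 9.71, 9.67 and 9.64 in replicate 1, against 4.51 to 6.47, median 5.69. CAT8, which acts upstream of SIP4, read 9.24 to 9.61 in replicate 1 and 6.97 to 9.60 in the rest, where H2B R95A with rapamycin, replicate 3, was the 1 array within the replicate 1 range. ADR1, the activator of ADH2 and of peroxisomal genes, differed by 1.20, and HAP4, the limiting subunit of the activator of respiratory genes, by 0.30 with overlap. Spike-in centring moved the HAP4 difference to the other side of 0.

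The listed repressor and kinase genes differed little apart from MIG1, MIG2 and SIP2. REG2, a regulatory subunit of the phosphatase that opposes Snf1, was not on the list. It was chosen after its values were seen and stood apart above the rest by 3.21 ± 0.48. Of 17 genes of glucose repression signalling, 1 stood apart and 11 were negative, with a median of -0.22. MIG1, the repressor itself, read 7.63, 6.76, 7.11 and 6.29 in replicate 1, against 8.13 to 8.90, median 8.69. MIG2, a related repressor, read 3.66 to 4.21 in replicate 1 and 4.69 to 7.26 in the rest. SIP2, a beta subunit of the Snf1 kinase, read 8.46 to 8.94 in replicate 1, against 6.40 to 7.74. The kinase gene SNF1 itself overlapped, at 8.14 to 8.24 in replicate 1 and 8.08 to 8.51 in the rest. Of the 8 genes of the glucose sensing pathway, MTH1, a co-repressor of hexose transporter genes, stood apart below the rest by 2.03 ± 0.61.

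Other glucose-repressed genes were divided in direction. Of 8 measured maltose and sucrose genes 2 were positive and 6 negative, with a median of -0.32 and group medians of -0.68 to 0.18. MAL33, a maltose gene activator, was the member that stood apart, with 6.38, 6.22, 6.56 and 6.24 in replicate 1 and 4.43 to 5.29 in the rest, a difference of 1.40 ± 0.20. SUC2, secreted invertase, read 8.29, 8.47, 8.10 and 8.24 in replicate 1, against 8.68 to 10.41, median 9.51. It was thus below every other array. HXK1, the hexokinase that glucose represses, read 11.04, 11.17, 10.97 and 10.92, against 11.78 to 12.08, and EMI2, a related gene, was 9.06 to 9.37 against 10.31 to 11.21. Over the 4 hexose kinase genes the median was -0.77. MAL32, a maltase gene whose probe set can share signal with a near-identical copy, was 5.51 to 5.63 in replicate 1, against 6.38 to 7.65. Of the 6 measured galactose genes 4 were positive, with a median of 0.15, which lay on the other side of 0 with spike-in centring. GAL3, the galactose sensor, had the difference furthest from 0 among them, with 6.31 to 6.79 in replicate 1 and 4.21 to 5.67 in the rest.

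Hexose transporters split. HXT5, a transporter of slowly growing and stationary cells, read 10.68, 10.92, 10.91 and 10.88 in replicate 1, against 5.63 to 8.46, median 7.64. HXT4, a high-affinity transporter induced by low glucose, read 7.45, 7.61, 6.82 and 6.95, against 9.91 to 10.89, median 10.29. It had the most negative difference of the probe sets that stood apart, at -3.18 ± 0.33. HXT3, a low-affinity transporter, differed by -2.06 ± 0.76, and HXT2, a high-affinity one, read 4.59 to 5.06 in replicate 1 against 5.83 to 7.66. The probe set of HXT7, which can share signal with HXT6, overlapped at 10.90 to 11.34 in replicate 1 and 11.01 to 11.38 in the rest. HXT1, the transporter induced by abundant glucose, was low throughout, at 3.37 to 3.75 in replicate 1 and 4.01 to 4.74 in the rest. Of the 14 transporters measured, 1 stood apart above and 2 below.

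**Figure D2:**
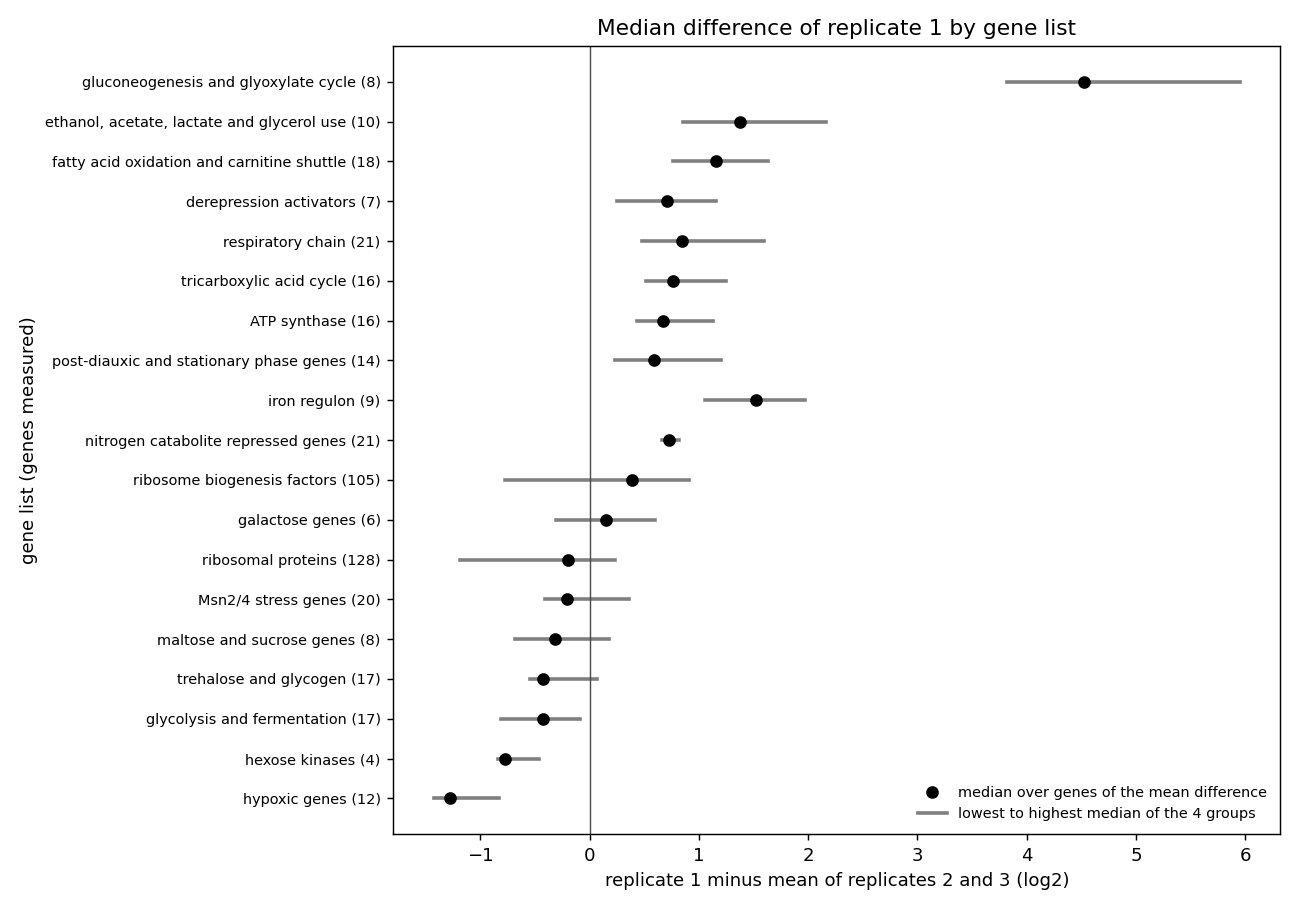
Difference of replicate 1 from the mean of replicates 2 and 3 (log2, horizontal axis) for 19 gene lists, with the number of genes measured. Points are medians over genes of the mean difference and bars run from the lowest to the highest median of the 4 groups. Gluconeogenesis is at 4.53, the respiratory lists lie between 0.67 and 0.85 and hypoxic genes are at -1.28.

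Glycolysis lay on the other side of 0. All 17 measured genes of glycolysis and fermentation were negative, with a median of -0.43 and none standing apart. Group medians ran from -0.81 to -0.09. In replicate 1 the list mean was 10.50 and 10.47 in H2B R95A with rapamycin and untreated, and 10.94 and 10.84 in H2B WT. The rest lay at 10.87 to 11.31, so replicate 1 of H2B WT with rapamycin was within their range. ENO2, the enolase induced by glucose, had the difference furthest from 0 in the list, at -1.41. Genes of reserve carbohydrate and general stress also come on when glucose is exhausted. Of 17 trehalose and glycogen genes 14 were negative, with a median of -0.42 and group medians of -0.55 to 0.07, and GSY1, a glycogen synthase, stood apart with 9.02 to 9.15 in replicate 1 and 10.34 to 11.25 in the rest. Of 20 targets of the stress activators Msn2/4, 11 were negative, with a median of -0.21 and group medians of -0.41 to 0.36. CTT1, cytosolic catalase, read 10.08 to 10.57 in replicate 1 and 10.31 to 11.84 in the rest. Post-diauxic and stationary phase genes had a median of 0.59, with 12 of 14 positive and none standing apart.

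The iron regulon was high in the same arrays. Its 9 genes were all positive, with a median of 1.53, and their mean signal was 8.98, 8.27, 8.50 and 8.04 in replicate 1 in the same order of groups, against 6.71 to 6.92 in the rest. Replicates 2 and 3 were nearly level over the groups, and every replicate 1 array lay above all of them. SIT1, a siderophore transporter, read 9.87, 8.91, 9.25 and 8.55, against 5.71 to 7.03, median 6.41. ARN1, another siderophore transporter, read 8.24, 7.77, 7.74 and 7.66, against 6.15 to 6.39. FTR1, the high-affinity iron permease, read 6.67 to 7.76 in replicate 1 and 4.23 to 5.83 in the rest, and FIT2, a cell wall protein that retains siderophore iron, 9.64 to 10.98 and 7.10 to 9.08.

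Hypoxic genes were low. Of 12, 5 stood apart below the rest and 10 were negative, with a median of -1.28. Their mean signal was 6.69, 6.88, 6.73 and 6.65 in replicate 1 and 7.55 to 8.16 in the rest. ANB1, the form of translation factor eIF5A made without oxygen, read 4.17, 4.95, 4.72 and 4.67, against 6.74 to 8.64, median 7.40. TIR1 and TIR3, cell wall mannoproteins of anaerobic cells, read 5.62 to 5.91 against 7.05 to 9.48 and 5.04 to 5.77 against 6.40 to 8.68. A pair of isoforms was opposed. COX5B, the hypoxic form of a cytochrome c oxidase subunit, read 7.63, 8.02, 7.91 and 7.68 in replicate 1, against 9.22 to 10.10. Its aerobic partner COX5A read 11.40, 11.53, 11.43 and 11.50, against 9.34 to 10.78. The other 2 listed members were positive, OLE1, the fatty acid desaturase, at 1.43 and ROX1 at 0.63. ROX1 encodes a repressor of hypoxic genes rather than being one of them.

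**Figure D3:**
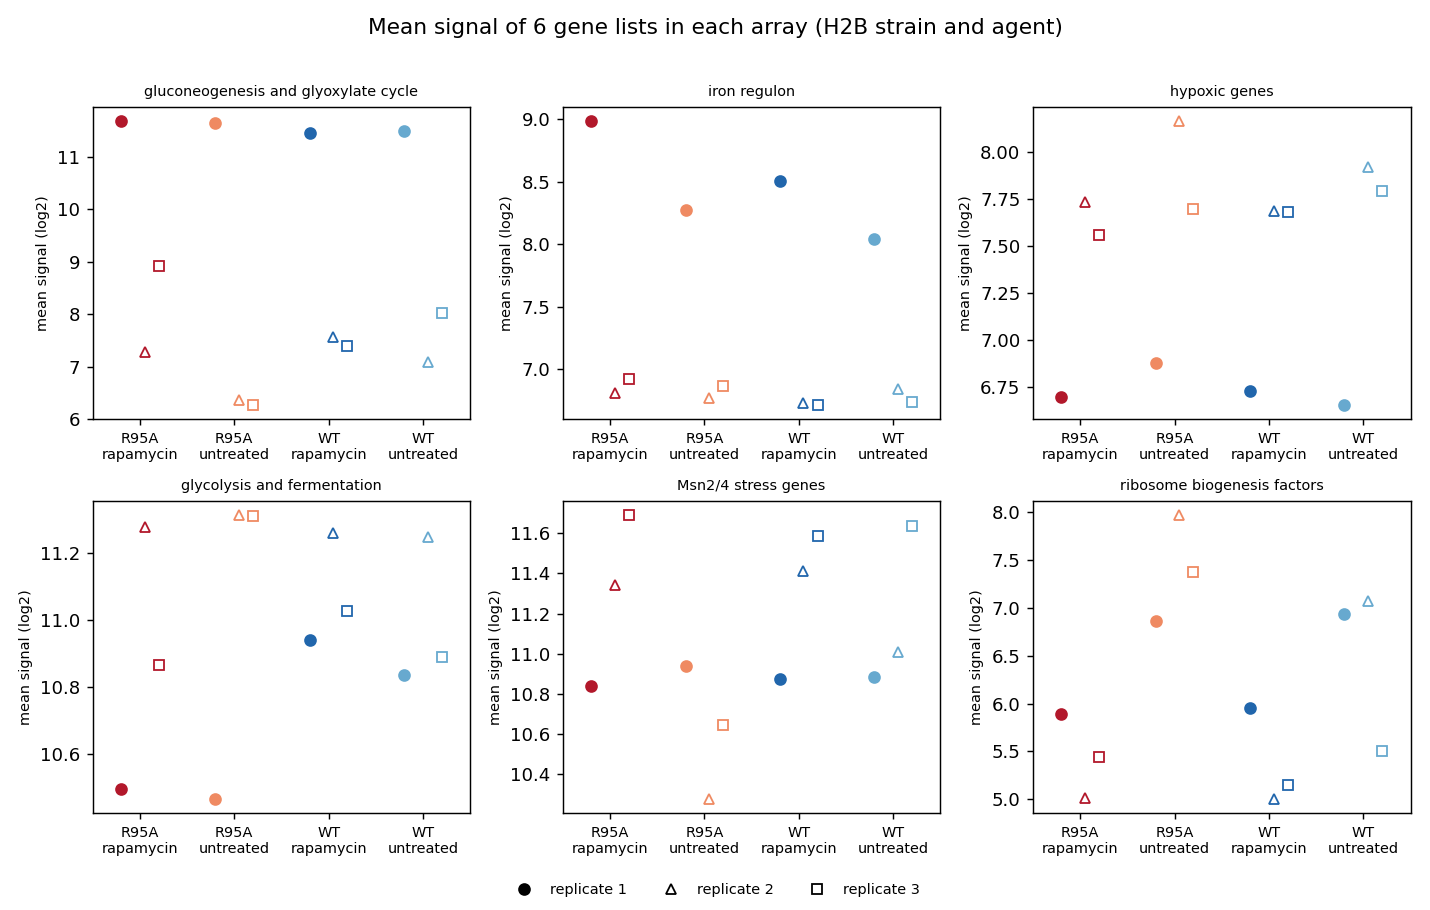
Mean RMA signal (log2, vertical axes, each panel on its own scale) of 6 gene lists in each array, by group along the horizontal axes, with replicate 1 as filled circles and replicates 2 and 3 as open symbols. Replicate 1 is above the rest for gluconeogenesis and iron genes and below them for hypoxic genes. Ribosome biogenesis factors are lower with rapamycin in every replicate number, by 0.98 in both strains in replicate 1. In H2B R95A and H2B WT the difference is -2.95 and -2.07 in replicate 2, and -1.93 and -0.35 in replicate 3.

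Nitrogen and lipid genes were also among those that stood apart. Of 21 genes under nitrogen catabolite repression, 3 stood apart and 19 were positive, with a median of 0.72. PUT4, the proline permease, read 10.76, 10.30, 10.52 and 9.90 in replicate 1, against 3.30 to 7.13, median 4.38, a difference of 5.51 ± 0.99. GDH2, the glutamate dehydrogenase that releases ammonium, read 10.63 to 10.84 in replicate 1 and 7.45 to 8.80 in the rest. MEP1, an ammonium permease, overlapped over all 12 arrays although it stood apart in each group. It read 9.47, 8.10, 9.94 and 8.06 in replicate 1, against 4.96 to 8.21, and was higher with rapamycin in replicate 1 of both strains. INO1, which makes inositol phosphate, read 11.35, 10.92, 11.79 and 11.50, against 6.78 to 9.28, whereas PIS1, phosphatidylinositol synthase, read 8.61 to 8.68 against 9.89 to 10.72. CYS3, a cysteine synthesis enzyme, came after HXT4 on the lower side, with 6.77, 6.98, 5.88 and 6.45 in replicate 1 and 8.73 to 10.42, median 9.88, in the rest. Of 14 genes of sulfate assimilation and methionine synthesis, 11 were negative, with a median of -0.39.

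Replicates 2 and 3 were then compared with each other, a contrast that the split does not use. In limma with Benjamini-Hochberg adjustment over 5498 probe sets, 0 passed an adjusted p of 0.05, 1076 had an unadjusted p under 0.05 and the smallest adjusted p was 0.158. Leaving out replicate 1 or replicate 3 of untreated H2B R95A raised the count to 606 or 465, and array quality weights to 1217. None of the 8 gluconeogenic genes passed, and their median was -0.46 for replicate 2 minus replicate 3. The 21 respiratory chain genes were all negative in that comparison, with a median of -0.53 and 0 past the test.

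Whether replicate 1 differed by the same amount in both strains was tested as an interaction. Of 5498 probe sets, 2 passed (0.0364%) and 345 had an unadjusted p under 0.05. Both that passed were genes of mating type a cells or of filamentous growth, and no derepression gene was among them. BAR1, the protease that degrades alpha factor, read 4.16 and 3.92 in replicate 1 of H2B R95A with rapamycin and untreated, against 3.66 to 4.24 in its other replicates. In H2B WT it read 6.65 and 6.56 in replicate 1, against 9.59 to 10.03 in the others. The replicate 1 difference was 3.11 higher in H2B R95A than in H2B WT (SE 0.27, adjusted p = 0.0129 in limma). TEC1, an activator of filamentation genes that pheromone signalling also controls, read 7.18 and 6.82 in replicate 1 of H2B R95A, against 6.62 to 6.99. In H2B WT it read 7.44 and 7.22 in replicate 1, against 9.19 to 9.62, and the difference between strains was 2.33 (SE 0.22, adjusted p = 0.0129 in limma). The number of probe sets past this test was 0 without any 1 of 5 arrays, and otherwise at most 3.

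All 7 a-specific genes had positive values in that interaction, with a median of 2.10, and BAR1 alone passed. Over all tested probe sets the median was 0.04. The a-specific genes were already low in H2B R95A, and the part of this in the interaction was not tested. MFA1, which encodes a-factor, came next to the threshold at 2.72 (SE 0.36, adjusted p = 0.116 in limma). Their mean signal was 5.51 and 5.50 in replicate 1 of H2B R95A with rapamycin and untreated, against 4.42 to 5.32 in its other arrays. In H2B WT it was 8.25 and 8.28 in replicate 1, against 9.59 to 10.13. The gap between H2B R95A and H2B WT was accordingly -2.74 with rapamycin and -2.78 untreated in replicate 1, and between -5.36 and -4.32 in replicates 2 and 3. The 4 alpha-specific genes had a mean signal of 3.82 to 4.97 in replicate 1 and 3.48 to 4.63 in the rest, and among them MF(ALPHA)1 read 5.59 in replicate 1 of H2B WT with rapamycin and 1.90 to 3.74 in the other 11 arrays.

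**Figure D4:**
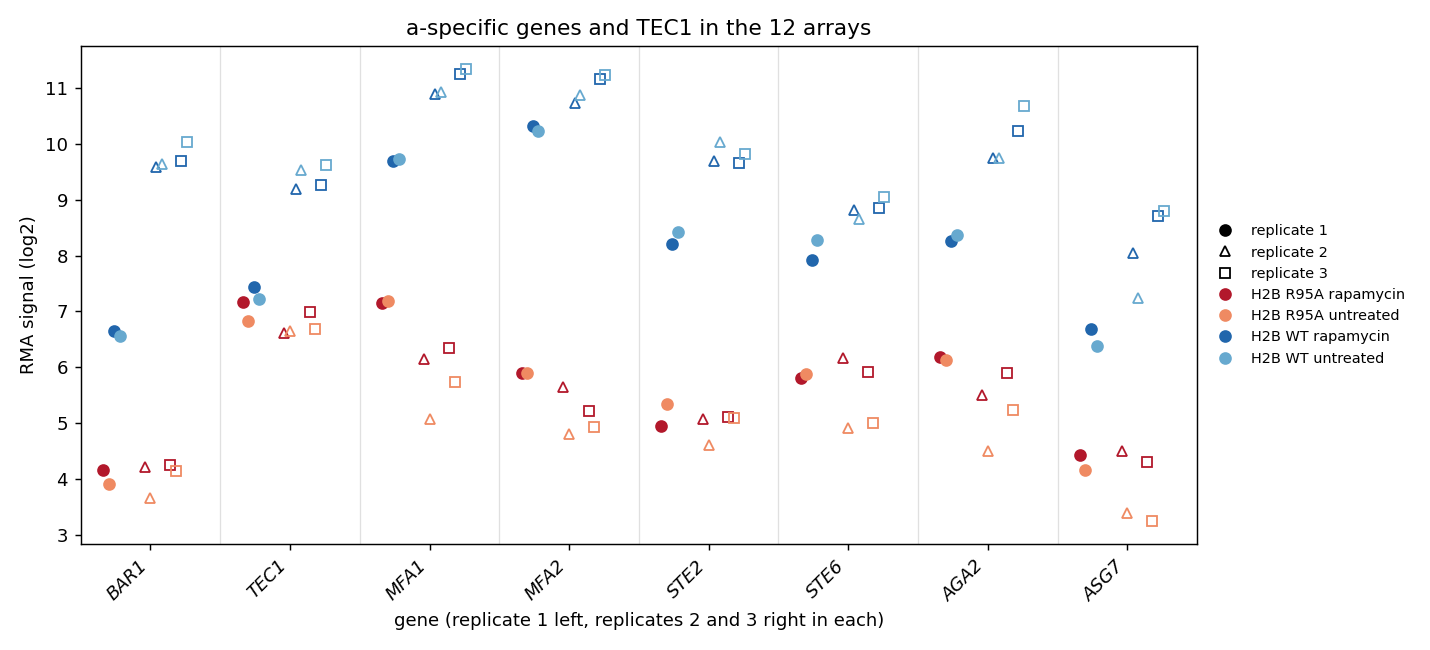
RMA signal (log2, vertical axis) of 7 a-specific genes and of TEC1 in each array, with replicate 1 as filled circles on the left of each gene and replicates 2 and 3 as open symbols on the right, coloured by group. In H2B WT replicate 1 lies below replicates 2 and 3 for every gene shown, and for TEC1 it lies close to the H2B R95A arrays.

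The response to rapamycin was examined within each replicate number. In H2B R95A, 183 probe sets differed by at least 2-fold between the treated and the untreated array of replicate 1, against 1002 in replicate 2 and 1381 in replicate 3. In H2B WT the counts were 132 in replicate 1, 582 in replicate 2 and 71 in replicate 3, where the untreated array resembles the treated one. These are single pairs of arrays without a test. The H2B R95A groups were not taken as paired by number, with correlations of 0.42, 0.48 and 0.01 between their deviations from group means. Differences between arrays that do not come from rapamycin can therefore enter these counts and the list means below. Ribosome biogenesis factors, which TOR drives, averaged -0.98 in both strains in replicate 1, against -2.95 and -1.93 in replicates 2 and 3 of H2B R95A and -2.07 and -0.35 in those of H2B WT. In replicate 1 their mean signal was 5.89 with rapamycin and 6.86 untreated in H2B R95A, and 5.96 with rapamycin and 6.94 untreated in H2B WT. Genes under nitrogen catabolite repression, which rapamycin releases, averaged 0.74 in replicate 1 of H2B R95A, against 2.38 and 0.65 in replicates 2 and 3. They averaged 1.12 in replicate 1 of H2B WT, against 1.76 and 0.93, so that replicate 1 lay below replicate 2 and above replicate 3 in both strains.

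The gluconeogenic genes, already high in untreated replicate 1 cells, differed little with rapamycin there. The gluconeogenic list averaged 0.03 in replicate 1 of H2B R95A, against 0.91 and 2.66 in replicates 2 and 3, arrays not taken as paired. It averaged -0.05 in replicate 1 of H2B WT, against 0.47 and -0.62. Other derepression genes did differ. ADY2 read 10.37 with rapamycin and 9.67 untreated in replicate 1 of H2B R95A, and 10.34 with rapamycin and 9.17 untreated in that of H2B WT. Genes of fatty acid oxidation and the carnitine shuttle averaged 0.31 and 0.33 in replicate 1 of H2B R95A and H2B WT, against 1.17 and 1.36 in replicates 2 and 3 of H2B R95A and 0.81 and 0.19 in those of H2B WT. The interaction of replicate 1 status with rapamycin was tested in limma over all 12 arrays. It gave 0 calls, 715 unadjusted p under 0.05 and a smallest adjusted p of 0.258. Without untreated H2B WT replicate 3, 221 probe sets passed. Of the 105 ribosome biogenesis factors, all but 4 had a positive value in this interaction, with a median of 0.87, and 0 passed. Over all tested probe sets the median was -0.01, and spike-in centring moved it by 1.36. Untreated H2B WT replicate 3, whose label is in doubt, enters these values.

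**Figure D5:**
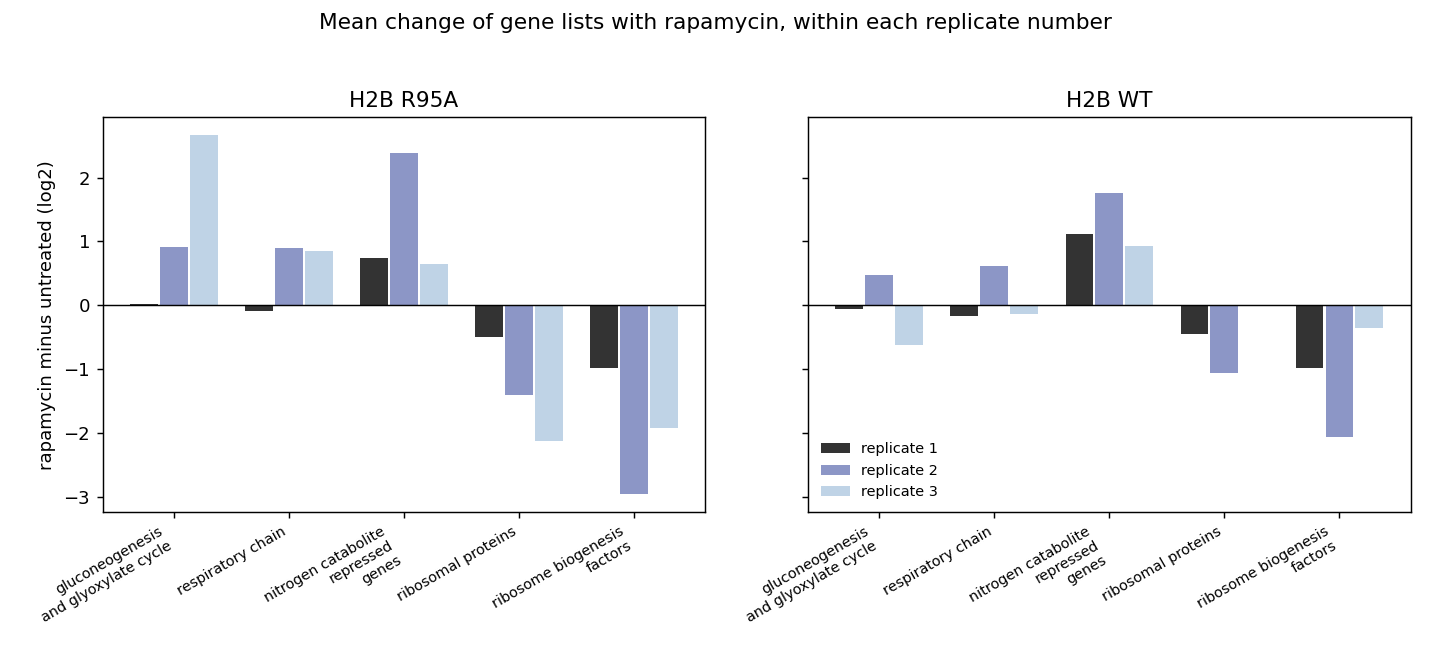
Mean difference with rapamycin (treated minus untreated, log2, vertical axis) of 5 gene lists within each replicate number, for H2B R95A on the left and H2B WT on the right. The black bars of replicate 1 are near 0 for gluconeogenic and respiratory genes and at -0.98 for ribosome biogenesis factors in both strains. The H2B R95A arrays were not taken as paired by number.

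The comparisons of the study were fitted with the replicate 1 arrays treated in 3 ways. H2B R95A against H2B WT gave 22 calls untreated (0.400%) from group means alone, 31 with replicate 1 status as a covariate (0.564%) and 41 on replicates 2 and 3 alone, 5 higher (0.0909%) and 36 lower (0.655%). With rapamycin the counts were 19 (0.346%), 34 (0.618%) and 24, the last of these 3 higher (0.0546%) and 21 lower (0.382%). All 22 and all 19 stayed past the test with the covariate. On replicates 2 and 3 alone, 21 of the 22 did, without YAR009C, and 17 of the 19, without ICS2 and RME1. With the replicate number as a block, which pairs these treated arrays, the count with rapamycin was 36. BAR1 passed the test in 2 of these 3 fits. Its untreated difference was -4.84 with an adjusted p of 0.0517 in limma from group means, 0.00732 with the covariate, and -5.93 with 7.58e-05 on replicates 2 and 3 alone. HPF1, a cell wall mannoprotein, was 1.93 higher in untreated H2B R95A with an adjusted p of 0.126 from group means and 0.000532 in limma with the covariate.

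Rapamycin gave 0 calls in limma in either strain with all 12 arrays, where 953 probe sets in H2B R95A and 235 in H2B WT had an unadjusted p under 0.05. The cyber-T test that the methods name gave 255 in H2B R95A and 7 in H2B WT. These counts use an adjusted p under 0.05 and no limit on fold change. The paper set other thresholds, with a limit on fold change, so its own counts are not comparable. In H2B WT the count in limma was also 0 with the covariate and on replicates 2 and 3 alone, with 440 and 421 unadjusted p under 0.05. In H2B R95A the covariate left 0, with 1564 unadjusted, and replicates 2 and 3 alone gave 713, of which 316 were higher (5.75%) and 397 lower (7.22%). That count depended on single arrays. It was 0 on leaving out any 1 of 6 of those 8 arrays, 1414 without untreated H2B WT replicate 2 and 1418 without untreated H2B WT replicate 3. Leaving only untreated replicate 1 of H2B R95A out of the 12 arrays gave 723. On replicates 2 and 3 alone, 78 of 105 ribosome biogenesis factors fell, with a median of -2.48, and MAK16, a 60S assembly factor, fell by 4.33 (SE 0.66, adjusted p = 0.0394 in limma). In replicate 1 the difference of MAK16 was -2.13. Of the 8 gluconeogenic genes 2 rose on replicates 2 and 3 alone, among them MLS1 by 2.86 (SE 0.70, adjusted p = 0.0458 in limma), where replicate 1 gave -0.01. PDH1, an enzyme of propionate breakdown, rose in the same fit by 4.32 (SE 0.69, adjusted p = 0.0394 in limma), and its difference in replicate 1 was 0.44.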

How the data were processed

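Total RNA, prepared by hot phenol extraction, was measured on 12 Affymetrix yeast arrays of 1 colour. The deposited values are log2 signals that the authors obtained with RMA in FlexArray, which subtracts background and equalises the distributions of the arrays by quantiles. Each of the 12 columns matched 1 sample and 0 columns were left over. Of the probe sets, 5498 annotated with 1 S. cerevisiae gene (5449 genes, 12 symbols updated) were used, and 3470 with no listed gene, 1747 of S. pombe and 213 controls were left out. No arrays held identical values. The number of arrays limits the precision, since with 3 arrays a group the smallest exact permutation p is 0.1.

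Groups and replicate numbers came from the sample titles. The members, gene lists and tests were chosen with earlier results of these data known. Tests used limma 3.58.1 in R 4.3.3, with a variance trend and Benjamini-Hochberg adjustment over all 5498 probe sets, and were checked on simulated data. The interactions held group means, replicate 1 status and its products with genotype and agent. Alternatives were other gaps, median and spike-in centring (12 probe sets), quantile normalization over the tested probe sets, a minimum mean signal of 1.37 (the 95th percentile of S. pombe probe sets), no trend, array weights, cyber-T (window 101, confidence 10), a mean for each cell of group and replicate 1 status, a replicate block, and leaving out each array. Genes named were the 15 with the largest difference on each side that stood apart, up to 4 of each list, all members of the carbon source, glucose regulation, mating type and strain marker lists, and the 10 furthest on each side in each test. Others were chosen after their values were seen, and not all that the rule covers are printed.

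Numbers were checked as pairs by correlating deviations from group means. The deviations of the 3 arrays of a group sum to 0, so those of replicates 2 and 3 hold part of the replicate 1 difference. The values below thus largely restate the split and are no independent support for pairing. The correlations were 0.88 (replicate 1), 0.78 (replicate 2) and 0.74 (replicate 3) between the treated strains, and 0.84, 0.41 and 0.77 between the H2B WT groups, which were taken as paired. They were 0.57, 0.83 and 0.06 between the untreated strains, and 0.42, 0.48 and 0.01 between the H2B R95A groups, which were not.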

Additional observations from a re-analysis of the deposited data

Results flagged for a closer look

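The replicate 1 difference of BAR1 was 3.11 higher in H2B R95A than in H2B WT, and that of TEC1 was 2.33 higher, and both passed the limma test of the interaction. BAR1 in replicate 1 lay below the other replicates in both H2B WT groups and among them in H2B R95A. Among probe sets with no listed gene, which entered no comparison, 3 lay at least 2-fold above both other replicates in all 4 groups, and 1 lay below. Groups of 3 arrays were not searched for single outlying arrays.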

How the results depend on the processing

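A gap of 1.5-fold gave 183 probe sets apart above and 104 below, and a gap of 4-fold gave 20 and 3. Spike-in centring moved the median difference of all probe sets by -0.30 and gave 32 above and 20 below, and quantile normalization gave 60 and 33. Leaving out each array gave 64 to 82 above and 21 to 43 below, the most without untreated H2B R95A replicate 1. Leaving out an array drops conditions from the rule, so the counts could not become smaller. Spike-in centring gave 1 call for replicate 2 against 3, 0 for replicate 1 by strain and 2597 for replicate 1 by rapamycin, where it moved the median by 1.36. Array quality weights gave 1217, 15 and 1618 calls in these 3 tests, 47 between the untreated and 38 between the treated strains, and 1030 for rapamycin in H2B R95A. The causes were not tested. With a replicate block, replicate 1 by strain had 5 calls, the untreated strains 32 and the treated strains 36, and it changed no other count. Replicate 1 status as a covariate gave 34 calls with rapamycin, and cyber-T gave 30. On replicates 2 and 3 alone, the untreated strains gave 41 and rapamycin in H2B R95A 713. For rapamycin cyber-T gave 255 calls in H2B R95A and 7 in H2B WT. Leaving out 1 array gave 0 to 606 calls for replicate 2 against 3, 0 to 3 by strain, 0 to 221 by rapamycin, 12 to 59 between untreated and 8 to 20 between treated strains, and 0 to 723 for rapamycin in H2B R95A, with 117 without untreated H2B WT replicate 3. On replicates 2 and 3 alone, leaving out 1 array gave 23 to 960 between untreated strains, the most without untreated H2B WT replicate 2, and 0 to 1418 for rapamycin in H2B R95A, with 1414 without that same array. With no trend, median centring or without dim probe sets, counts stayed within 1.5 times. Of the single gene differences and list medians, 3330 and 572 stayed within 1 SD and 78 and 20 did not. Low signals, though above the minimum of 1.37, limit what can be read of genes such as HXT1, MIG2 and POX1.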

Other observations

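Cell cycle genes also differed in replicate 1. Of 9 genes of the G1 to S transition 8 were positive, with a median of 0.76, but the group medians ran from -0.07 to 1.55. Their mean signal was 6.87 in replicate 1 of H2B R95A with rapamycin, against 5.50 and 4.95 in replicates 2 and 3, and 6.50 in that of H2B WT with rapamycin, against 5.38 and 5.21. Untreated, it was 5.96 in replicate 1 of H2B R95A, against 6.07 and 6.19, and 6.05 in replicate 1 of H2B WT, against 6.01 and 5.10. Replicate 1 was thus above both others with rapamycin in both strains, and below both in untreated H2B R95A. PCL1, a G1 cyclin, read 6.20, 4.09, 5.68 and 4.05 in replicate 1 of H2B R95A with rapamycin, untreated H2B R95A, H2B WT with rapamycin and untreated H2B WT. In the rest it read 2.08 to 4.86. All 5 measured G2 to M genes were negative, with a median of -0.51, and CLB2, a mitotic cyclin, read 4.83 to 5.64 in replicate 1 and 6.03 to 7.09 in the rest. CIT2, a peroxisomal citrate synthase and the usual target of the retrograde pathway, read 11.93 to 12.12 in replicate 1, against 8.68 to 11.60. The 54 mitochondrial ribosomal protein genes had a median of -0.14, and the 128 cytosolic ones one of -0.20. Purine synthesis genes had a median of -0.44. The sign depended on the group for the cytosolic ribosomal list, with group medians of -1.19 to 0.23, and for the purine list, with -1.31 to 0.38. Phosphate starvation genes had a median of 0.31, with group medians of 0.08 to 0.64.

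Other genes that stood apart belonged to no list and were chosen after their values were seen. REG2, a regulatory subunit of the phosphatase that opposes Snf1, was higher by 3.21 ± 0.48. AGX1, which makes glycine from glyoxylate, was higher by 3.19 ± 1.00. ALD6, the cytosolic aldehyde dehydrogenase that makes acetate, was higher by 2.01 ± 0.76, and AAC1, a mitochondrial carrier of ADP and ATP, by 2.01 ± 0.59. On the lower side stood GPP2, a glycerol phosphatase, at -2.31 ± 0.23, TSA2, a peroxiredoxin, at -2.72 ± 0.92, and DSE2, a daughter cell wall enzyme, at -1.79 ± 0.26.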
